A study of Mus musculus with 6 samples.

Results

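Voltage-gated calcium and sodium channels open when the membrane of a neuron or muscle cell depolarizes. Sodium channels carry the upstroke of the action potential, and calcium channels couple the change in voltage to transmitter and hormone release, to firing patterns and to gene expression. The pore of each channel is 1 large alpha subunit, encoded by a *Cacna1* gene for calcium channels and by an *Scn* gene ending in a for sodium channels, and accessory subunits set where the pore goes and how it gates. In the hypothalamus these channels are known for the pacemaking of neuroendocrine neurons and for the release of peptides from their terminals.

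The genes described here are those whose symbol in the platform annotation of the array begins with *Cacna*, *Cacnb* or *Cacng*, or is *Scn*, a number and a or b, with *Scn4b* left out. This gave 34 of the 16663 genes tested. They comprise 10 *Cacna1* pore genes, 4 *Cacna2d*, 3 *Cacnb* and 7 *Cacng* accessory genes, 8 *Scn* alpha genes and 2 *Scn* beta genes. The rule uses symbols and no measured value, but the family was picked for description with earlier results of these data known. They have 50 probesets with 1 annotated gene, and the probeset with the highest mean over the arrays stands for each gene. All 34 passed the filter on low signals.

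Hypothalamic RNA of female C57Bl/6J mice was measured on 6 Affymetrix arrays. The labels name the hypothalamus as the source of the RNA and in the extraction, while their treatment text speaks of adrenal glands. The CGP group (3 arrays) were offspring of mothers that received the NMDA receptor antagonist CGP 39551 at 5 mg/kg by mouth during pregnancy and up to weaning. The CON group (3 arrays) were control mice of the same age. In both groups the mice were 21 weeks old at death and the RNA of 18 mice was pooled, so that 1 group is a pool and not a set of animals. The article gives an overnight fast and killing under xylazine and ketamine, itself an NMDA receptor blocker, for its mice in general. It describes arrays of males only, for which 1 pool a group was hybridised in triplicate. No source says whether that holds for these arrays. The SD, every standard error, interval and p below therefore measure only how the 3 arrays of a group differed, which may be technical variation.

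Signals are log2 RMA values as deposited, and a change is CGP minus CON on that scale, where 0.26 is 1.2-fold and 0.49 is 1.4-fold. The words rose and fell are kept for genes at an adjusted p under 0.05 over all 18239 tested probesets. Array medians lay between 8.19 and 8.21. CGP replicate 1 lay apart from the other arrays on the second principal component (-9.67, against -0.013 to 4.78). Of 13 hypothalamus markers 12 were tested, among them *Hcrt*, *Pmch*, *Avp* and *Oxt*. Their list means were 10.17 to 10.22 on the CGP arrays and 10.21 to 10.27 on the CON arrays. Of the 12 changes 4 were positive and 8 negative, with a median of -0.025. At an unadjusted p under 0.05 in limma 2 of these markers were lower and 0 higher, and none rose or fell. Of all tested probesets, 5.83% were lower and 5.25% higher at that level. Some markers of nearby tissue differed between the groups. Of 8 choroid plexus genes 2 rose, and of 6 anterior pituitary genes 2 rose. Of 9 meningeal genes 5 fell, and of 7 genes of midbrain dopamine neurons 1 fell. Their part in the values below was not tested. In bulk RNA, fewer cells of a type and less RNA per cell cannot be told apart.

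No channel gene rose or fell in CGP. Of the 34 genes, 0 were higher and 0 lower at an adjusted p under 0.05 in limma, where 0.154% of all tested probesets were higher and 0.126% lower. The adjusted p of the 34 ran from 0.198 to 0.985. Changes were small, from -0.12 for *Scn1a* to 0.19 for *Cacng1*, and the 95% interval of all 34 changes lay inside 1.4-fold either way. For 32 of them it lay inside 1.2-fold, and the exceptions were *Cacna1g* and *Cacng1*, whose intervals reached 0.28 and 0.32. These intervals are not adjusted for the number of genes, and they rest on the spread between arrays of pooled RNA, not between animals. The SD of a gene within a group lay between 0.0053 and 0.16.

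At an unadjusted p under 0.05, 6 channel genes were higher in CGP, all of them calcium channel genes, and 2 were lower, both sodium channel genes. Of all tested probesets, 5.25% were higher and 5.83% lower by this rule. With 1 array left out the count of 8 became 4 to 8. It was 4 without CGP replicate 2 or CON replicate 1 and 5 without CON replicate 2. Neither sodium channel gene was at that level without CGP replicate 2, CGP replicate 3 or CON replicate 1. Without CON replicate 2, *Scn7a* was at that level and *Scn1a* was not. The share of all tested probesets also moved, from 11.1% to between 8.05% and 14.2%. For 9 channel genes the CGP arrays were all above the CON arrays, and for 1 they were all below, against 7.59% and 9.95% of all tested probesets. In all, 23 channel genes had a positive change and 11 a negative one. The median change was 0.026, where that of all tested probesets was -0.0031 and 47.9% of them were positive. On the calcium side 18 of 24 genes were positive, with a median of 0.037. These 24 include 7 *Cacng* genes, 6 of them positive, most of which encode proteins that mainly act on AMPA receptors. On the sodium side 5 of 10 genes were positive, with a median of 0.0014. The difference between the calcium and sodium channel genes was not tested.

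**Figure D1:**
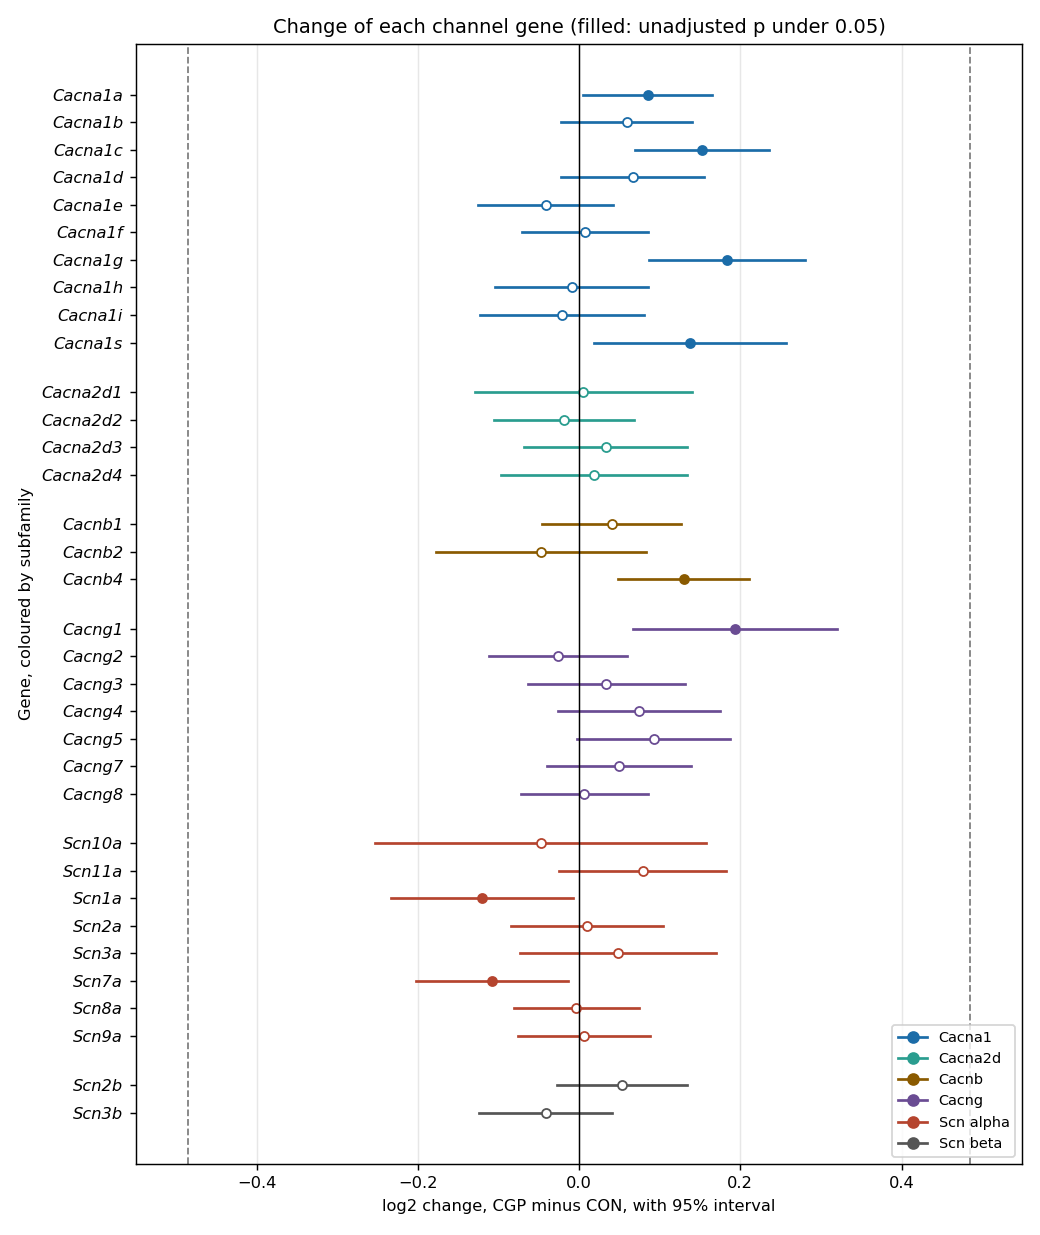
Change of each of the 34 channel genes, as log2 of CGP minus CON on the horizontal axis, with its 95% interval (bars) and genes grouped by subfamily. Filled circles mark the 8 genes at an unadjusted p under 0.05, and every interval lies between the dashed lines at 1.4-fold.

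Signals spanned nearly the whole range of the arrays. The mean over the 6 arrays was at least 8 for 25 of the 34 genes and below 7 for 4, *Cacna1f*, *Cacnb2*, *Scn10a* and *Scn11a*. Probesets differ in how well they bind, so that the signal of 1 gene says nothing of its abundance next to another. The median gene of the 34 stood at the 76.6th percentile of the signals of all tested probesets.

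**Figure D2:**
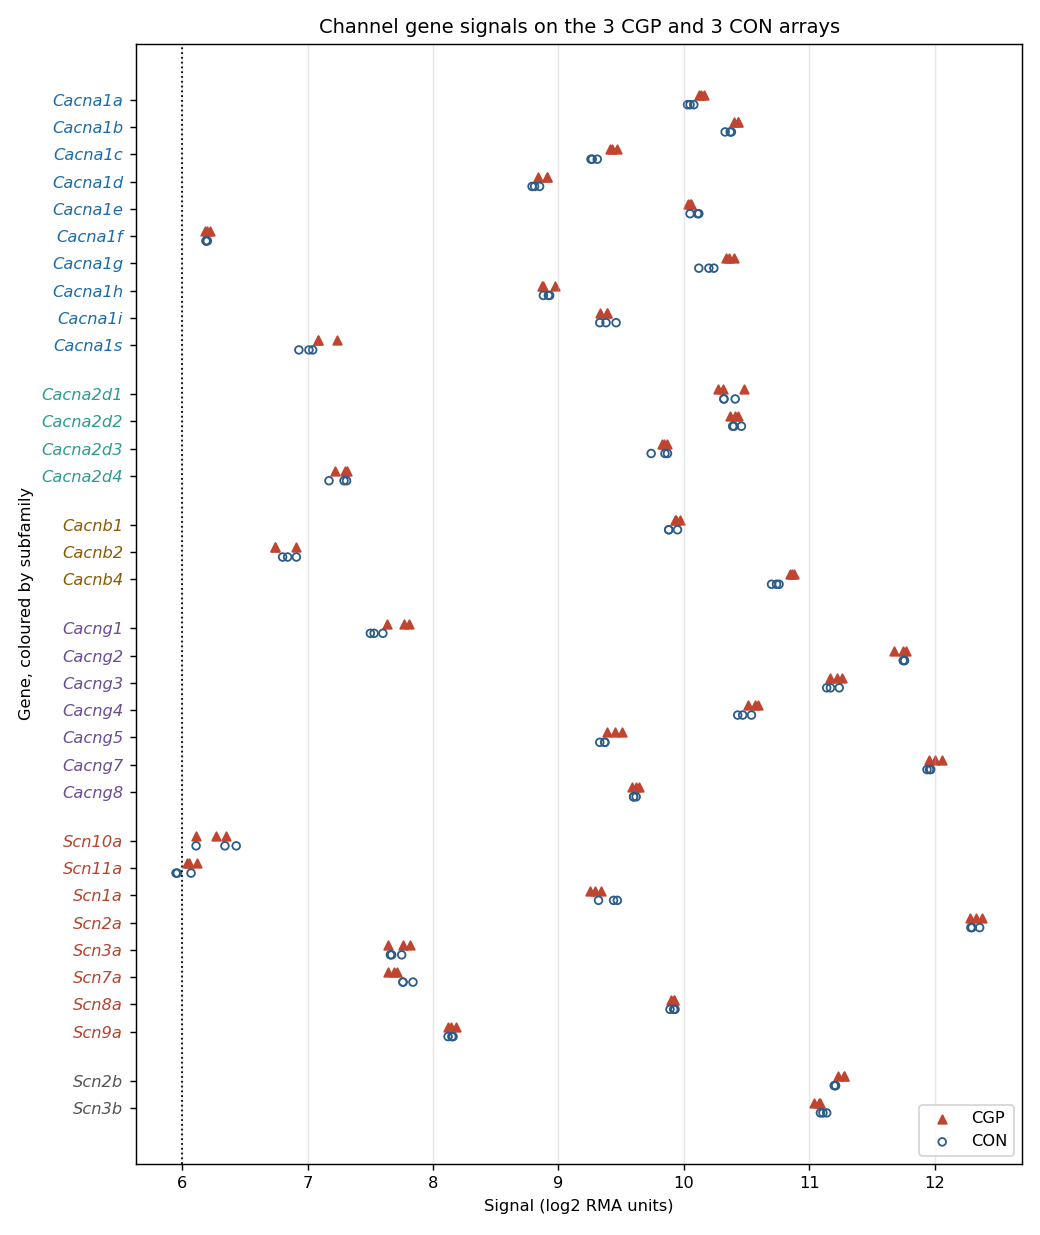
Signals of the 34 channel genes in log2 RMA units on the horizontal axis, with 3 CGP arrays as triangles above 3 CON arrays as circles for each gene, and the signal filter at 6 as a dotted line. The groups overlap for most genes, and *Cacna1f*, *Scn10a* and *Scn11a* lie close to the filter.

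Among the 10 *Cacna1* pore genes, 7 changes were positive and 3 negative, with a median of 0.063. No gene passed the test, 4 were higher at an unadjusted p under 0.05, and for 5 the CGP arrays lay above the CON arrays. Of all tested probesets, 5.25% were higher at that level, and for 7.59% the CGP arrays lay above the CON arrays. The L-type channels among them (*Cacna1c*, *Cacna1d*, *Cacna1f*, *Cacna1s*) inactivate slowly. P/Q-, N- and R-type channels (*Cacna1a*, *Cacna1b*, *Cacna1e*) are known for transmitter release. T-type channels (*Cacna1g*, *Cacna1h*, *Cacna1i*) open near rest and drive burst firing.

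*Cacna1g*, the T-type pore best known from thalamic relay neurons, had signals of 10.40, 10.34 and 10.36 on the CGP arrays, against 10.20, 10.12 and 10.24 on the CON arrays. The groups did not overlap, with the lowest CGP array at 10.34 and the highest CON array at 10.24. The change was 0.18 (standard error 0.042, adjusted p = 0.198), a 1.14-fold difference that did not pass. It passed only in the alternative with a trended and robust eBayes (adjusted p = 0.013). The other T-type genes lay near 0, with *Cacna1h* at -0.0093 (95% interval -0.10 to 0.085) and *Cacna1i* at -0.022 (-0.12 to 0.080). Genes that mark the thalamus, which borders the hypothalamus, were higher in CGP too. All 9 of a thalamus list were positive (median 0.24), 2 of them past the test, *Prkcd* (0.27) and *Ptpn3* (0.36). The mean signal of that list was 10.13 to 10.17 on the CGP arrays and 9.89 to 9.93 on the CON arrays. Its part in the value of *Cacna1g* was not tested.

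The L-type pore gene *Cacna1c*, the main L-type channel of brain and heart, had signals of 9.47, 9.43 and 9.41 in CGP, against 9.31, 9.26 and 9.27 in CON. All CGP arrays were the higher ones, and the change of 0.15 (standard error 0.036, adjusted p = 0.219) did not pass. *Cacna1d*, the other L-type gene of neurons, had 8.91, 8.84 and 8.91 in CGP and 8.85, 8.81 and 8.79 in CON. Its groups overlapped, and the change was 0.066 (adjusted p = 0.565). *Cacna1f*, known from photoreceptors, stayed between 6.18 and 6.22 on every CGP array and between 6.19 and 6.20 on every CON array, with an interval of -0.071 to 0.085.

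*Cacna1s*, the L-type pore of skeletal muscle, had dim signals of 7.08, 7.23 and 7.08 in CGP, against 7.01, 6.93 and 7.04 in CON. The groups lay apart by only 0.04 at the nearest arrays, and the change was 0.14 (standard error 0.052, adjusted p = 0.412). Without CGP replicate 2, the array at 7.23, it was 0.089 (adjusted p = 0.673). The unadjusted p was not under 0.05 without that array, nor without CON replicate 1 or CON replicate 2. Of 8 skeletal muscle markers such as *Acta1*, *Ckm* and *Myh4*, 3 were positive and 5 negative, none at an unadjusted p under 0.05. Their mean signal was 7.17 to 7.22 on the CGP arrays and 7.20 to 7.24 on the CON arrays.

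Among the pores of nerve terminals, *Cacna1a* (P/Q-type) had signals of 10.16, 10.14 and 10.12 in CGP, against 10.05, 10.03 and 10.08 in CON. The CGP arrays were the higher ones by a small margin, and the change was 0.085 (standard error 0.035, adjusted p = 0.433). Whichever array was left out, the unadjusted p of *Cacna1a* was not under 0.05. *Cacna1b* (N-type) had 10.43, 10.43 and 10.40 in CGP and 10.38, 10.33 and 10.37 in CON. Its groups also lay apart, with a change of 0.059 (adjusted p = 0.577) whose interval of -0.022 to 0.14 includes 0. *Cacna1e* (R-type) had a negative change, -0.041, with an interval of -0.12 to 0.043.

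The 4 *Cacna2d* genes encode the large extracellular subunits that carry the pore to the membrane, and *Cacna2d1* and *Cacna2d2* bind gabapentin. None had an unadjusted p under 0.05, in none did the groups lie apart, and their changes ran from -0.018 for *Cacna2d2* to 0.033 for *Cacna2d3*. *Cacna2d3* had signals of 9.87, 9.84 and 9.83 in CGP, against 9.85, 9.87 and 9.74 in CON. The groups overlapped, with CON replicate 3 the lowest array, and without that array the change was -0.0072. The widest interval of this subfamily was that of *Cacna2d1*, -0.13 to 0.14, whose CGP arrays held 10.48, 10.27 and 10.31. *Cacna2d4*, known from retina, had a change of 0.018.

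Of the 3 *Cacnb* genes, which encode the cytoplasmic subunit that binds the loop between the first and second repeats of the pore, *Cacnb4* was the one whose groups lay apart. It is the gene mutated in the ataxic lethargic mouse. Its signals were 10.88, 10.85 and 10.86 in CGP, against 10.70, 10.74 and 10.76 in CON. Every CGP array exceeded every CON array, and the spread within a group was small (SD 0.018 in CGP and 0.029 in CON). The change of 0.13 (standard error 0.035, adjusted p = 0.273) did not pass, and the trended and robust eBayes gave an adjusted p of 0.0348. For *Cacnb1* the change was 0.041 (95% interval -0.046 to 0.13), and for the dim *Cacnb2* it was -0.047 (-0.18 to 0.083).

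The *Cacng* genes described here are 1 gene of the muscle calcium channel, *Cacng1*, and a set whose proteins, the TARPs, mainly traffic and tune AMPA receptors. *Cacng1* had dim signals of 7.63, 7.77 and 7.81 in CGP, against 7.53, 7.50 and 7.60 in CON. The groups lay apart by only 0.03 at the nearest arrays, with CGP replicate 1 the lowest of its group. Its change of 0.19 (standard error 0.055, adjusted p = 0.292) was the largest of the 34 genes, and without CGP replicate 1 it was 0.25 (adjusted p = 0.13). The levels of the skeletal muscle markers are those given for *Cacna1s*.

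Of the 6 TARP genes, 5 had a positive change and none had an unadjusted p under 0.05. *Cacng5* had signals of 9.51, 9.45 and 9.39 in CGP, against 9.37, 9.37 and 9.33 in CON. Its groups lay apart by 0.02 at the nearest arrays, and the change was 0.092 (standard error 0.041, adjusted p = 0.457). *Cacng4*, its neighbour on the chromosome, had 0.074 (adjusted p = 0.574), *Cacng7* had 0.050, *Cacng3* 0.034 and *Cacng8* 0.0067. *Cacng2*, the stargazin gene, had a change of -0.026 (95% interval -0.11 to 0.060), and its second probeset -0.047. *Cacng1*, *Cacng4* and *Cacng5* stand next to each other among the protein-coding genes of chromosome 11 in RefSeq (GRCm38.p6), and all 3 had positive changes. *Cacng7* and *Cacng8* are neighbours on chromosome 7.

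**Figure D3:**
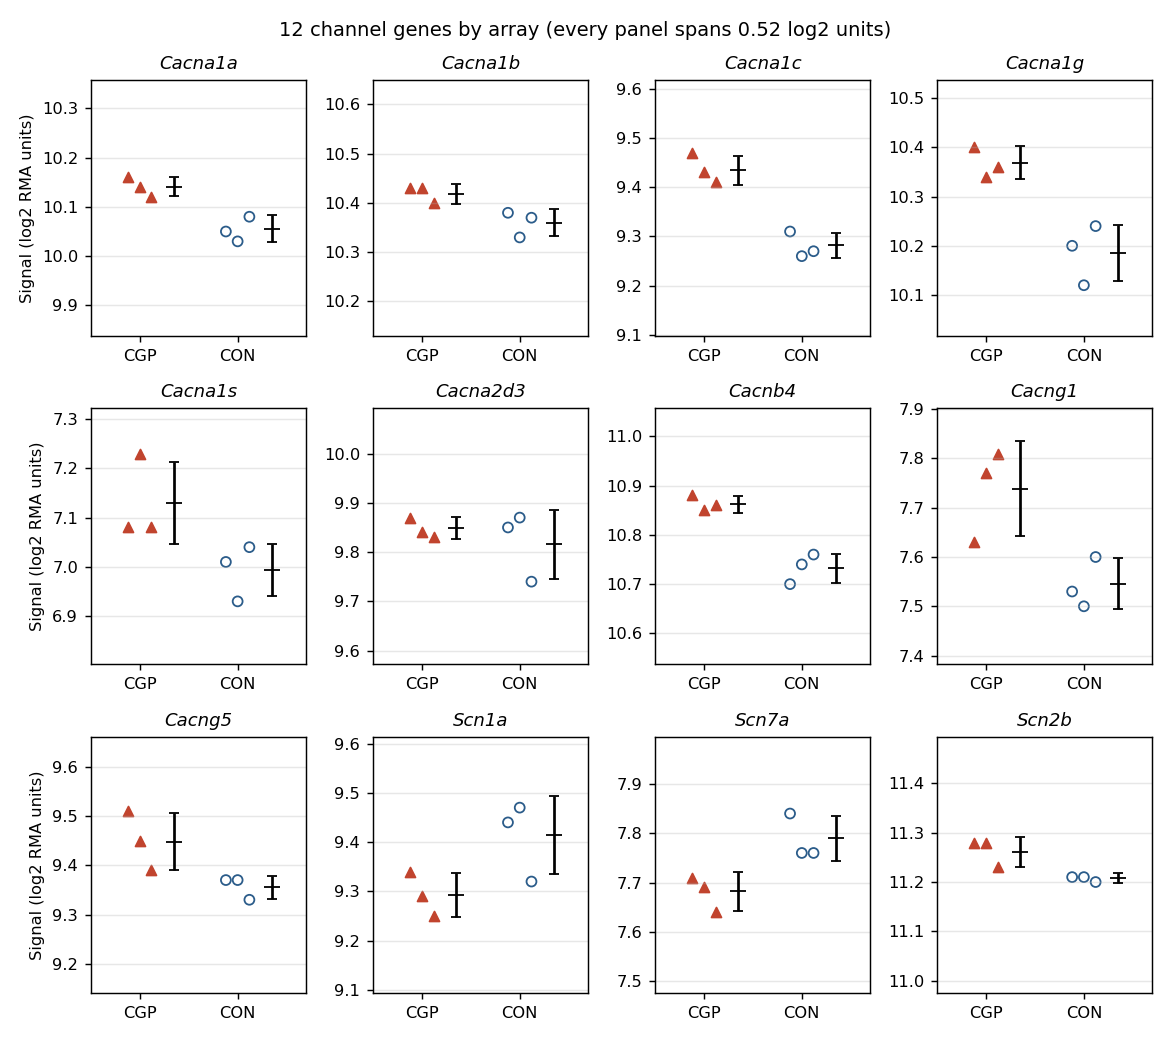
Signals by array of the 12 channel genes given in full, in log2 RMA units, with 3 CGP arrays (triangles) left of 3 CON arrays (circles) and the mean and SD of each group beside them. Every panel spans the same range, so that the step of 0.18 for *Cacna1g* can be set against that of 0.033 for *Cacna2d3*, and *Scn1a* and *Scn7a* are the genes lower in CGP.

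The 8 *Scn* alpha genes were evenly split, with 4 positive and 4 negative changes and a median of 0.0014. *Scn1a*, *Scn2a*, *Scn3a* and *Scn8a* are the sodium channel pores of central neurons, *Scn9a*, *Scn10a* and *Scn11a* are known from sensory neurons, and *Scn7a* encodes an atypical channel that senses the sodium level in glia of circumventricular organs. *Scn1a*, the pore gene most tied to inhibitory interneurons, had signals of 9.34, 9.29 and 9.25 in CGP, against 9.44, 9.47 and 9.32 in CON. The groups overlapped, since CGP replicate 1 lay above CON replicate 3. The change of -0.12 (standard error 0.049, adjusted p = 0.426) did not pass. *Scn7a* had 7.71, 7.69 and 7.64 in CGP, against 7.84, 7.76 and 7.76 in CON. All CGP arrays were the lower ones, and the change was -0.11 (standard error 0.041, adjusted p = 0.412). Of 6 astrocyte markers, 5 were negative in CGP and 1 positive (median -0.084), with 3 lower at an unadjusted p under 0.05 and none past the test. At that level 5.83% of all tested probesets were lower, and the list was chosen with earlier results of these data known. The mean signal of the astrocyte markers was 10.37 to 10.43 in CGP and 10.46 to 10.49 in CON, and their part in the value of *Scn7a* was not tested.

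The intervals of the other alpha genes included 0 and differed in width. The axonal gene *Scn8a* had signals of 9.92, 9.90 and 9.92 in CGP and 9.93, 9.92 and 9.89 in CON. Its change was -0.0033 (95% interval -0.081 to 0.075), the narrowest interval but for that of *Cacna1f*. *Scn9a* had 0.0060 (-0.076 to 0.088) and *Scn3a*, the pore of the embryonic brain, 0.048 (-0.074 to 0.17). *Scn11a* had 0.079 (-0.025 to 0.18). Its mean was 5.993 in CON, below the filter of 6, and 6.071 in CGP, so that it passed only through the CGP arrays. It is counted among the 4 positive changes of the alpha genes. *Scn10a* and *Scn11a*, with signals between 5.95 and 6.43 over the arrays, lay at the filter, and the interval of *Scn10a*, -0.25 to 0.16, was the widest of all. Genes of the *Scn* family are similar in sequence, so that probes can cross-hybridise. Of the probesets annotated to several genes, 3 carried *Scn* symbols and were not tested. That of *Scn2a*, *Scn9a* and *Scn3a* had signals of 7.25, 6.74 and 6.93 in CGP, against 7.33, 7.51 and 6.98 in CON. Its groups overlapped and its spread was wide (SD 0.256 in CGP and 0.272 in CON), with means of 6.98 in CGP and 7.27 in CON. The probeset of *Scn9a* and *Scn3a* had means of 9.92 in CGP and 9.96 in CON, and that of *Scn3a* and *Scn1a* 9.15 in CGP and 9.23 in CON.

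*Scn2a*, a main sodium channel pore of excitatory axons, had 14 probesets of its own, far more than any other gene of the set. Its probeset with the highest mean had signals of 12.33, 12.28 and 12.38 in CGP, against 12.30, 12.29 and 12.36 in CON. The groups overlapped, and the change was 0.010 (95% interval -0.084 to 0.10). The means of the 14 probesets spanned 8.56 to 12.32, although they are annotated to 1 gene. Their changes ran from -0.14 to 0.042, with 4 positive and 10 negative and a median of -0.031. The lowest, at a mean signal of 9.48, was the only one at an unadjusted p under 0.05, and its adjusted p was 0.401. The probesets were hybridised with the same RNA and are not replicates.

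**Figure D4:**
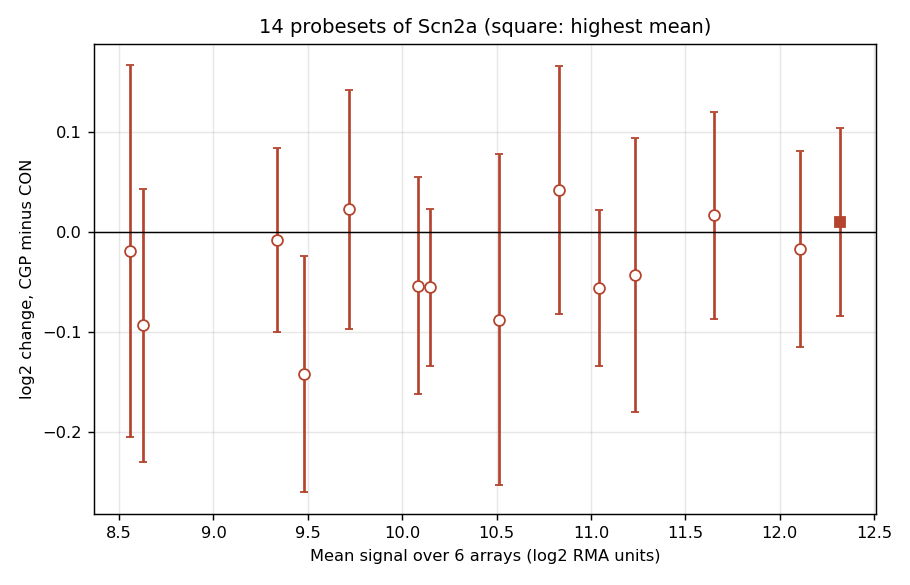
Change of the 14 *Scn2a* probesets (log2 of CGP minus CON, with 95% intervals) against their mean signal over the 6 arrays in log2 RMA units, the square being the probeset that stands for the gene. The changes lie between -0.14 and 0.042, and 13 of the 14 intervals include 0.

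*Scn1a*, *Scn2a*, *Scn3a*, *Scn7a* and *Scn9a* form a cluster on chromosome 2 in RefSeq (GRCm38.p6), with 3 protein-coding genes between *Scn2a* and *Scn1a*, and *Scn1a*, *Scn9a* and *Scn7a* are direct neighbours. Their changes were -0.12, 0.0060 and -0.11 in that order. The interval of *Scn9a*, -0.076 to 0.088, includes 0, so that the direction of its change was not resolved. The other probeset of *Scn9a*, with a lower mean signal, had a change of -0.083, and its interval of -0.22 to 0.050 includes 0 too. Whether these neighbours share a direction therefore stays undecided. *Scn10a* and *Scn11a* are neighbours on chromosome 9, and *Cacna1c* and *Cacna2d4* stand on chromosome 6 with 1 protein-coding gene between them.

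The beta genes encode single-pass subunits that attach to the sodium channel pore. *Scn2b*, whose protein is bound by a disulphide bridge, had signals of 11.28, 11.28 and 11.23 in CGP, against 11.21, 11.21 and 11.20 in CON. The groups lay apart by 0.02 at the nearest arrays, and the change was 0.053 (standard error 0.035, adjusted p = 0.618). *Scn3b*, whose protein is bound without such a bridge, had 11.09, 11.08 and 11.04 in CGP and 11.14, 11.11 and 11.09 in CON. Its change was -0.041 (adjusted p = 0.708).

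Promoter sequence was read for the genes at an unadjusted p under 0.05, to show what lies before the starts of genes that were higher and lower in CGP. RefSeq (GRCm38.p6) windows of 250 bases before to 50 after a start were at hand for 26 of the 34 genes, with 36 starts in all, and for *Cacna1c*, *Cacna1s*, *Cacnb4*, *Scn1a* and *Scn7a* among the 8. Where a gene had several starts, that with the highest share of G and C is printed, which was 1 of 3 for *Cacna1c* and for *Cacnb4*. Capitals mark the GC box, GGGCGG on either strand, overlapping matches included. A match is a description of the letters and not a site of binding.
*Cacna1c* (chr6:119108446-119108745, minus strand): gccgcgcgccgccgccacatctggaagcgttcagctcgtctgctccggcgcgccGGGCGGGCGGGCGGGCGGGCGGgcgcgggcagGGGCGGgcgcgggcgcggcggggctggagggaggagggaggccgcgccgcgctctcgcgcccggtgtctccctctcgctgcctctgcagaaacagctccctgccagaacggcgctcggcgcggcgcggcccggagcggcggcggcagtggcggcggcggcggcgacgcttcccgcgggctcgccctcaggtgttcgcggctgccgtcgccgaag
*Cacnb4* (chr2:52676094-52676393, minus strand): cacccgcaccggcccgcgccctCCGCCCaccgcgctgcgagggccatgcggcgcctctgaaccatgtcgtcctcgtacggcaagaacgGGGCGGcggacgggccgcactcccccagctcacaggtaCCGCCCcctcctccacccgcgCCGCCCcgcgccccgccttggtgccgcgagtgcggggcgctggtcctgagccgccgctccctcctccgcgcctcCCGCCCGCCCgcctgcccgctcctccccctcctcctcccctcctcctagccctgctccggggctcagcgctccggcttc
*Cacna1s* (chr1:136052561-136052860, plus strand): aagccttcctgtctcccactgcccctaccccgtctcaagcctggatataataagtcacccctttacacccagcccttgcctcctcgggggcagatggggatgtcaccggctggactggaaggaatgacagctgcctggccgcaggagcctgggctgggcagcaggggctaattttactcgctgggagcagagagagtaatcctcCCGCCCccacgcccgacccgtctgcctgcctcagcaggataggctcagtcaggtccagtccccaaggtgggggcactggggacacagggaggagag
*Scn1a* (chr2:66440788-66441087, minus strand): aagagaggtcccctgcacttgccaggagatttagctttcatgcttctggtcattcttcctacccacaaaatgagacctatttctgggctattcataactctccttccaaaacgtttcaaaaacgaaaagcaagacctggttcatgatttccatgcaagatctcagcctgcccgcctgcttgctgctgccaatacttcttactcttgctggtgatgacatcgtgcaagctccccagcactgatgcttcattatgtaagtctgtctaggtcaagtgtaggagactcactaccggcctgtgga
*Scn7a* (chr2:66784861-66785160, minus strand): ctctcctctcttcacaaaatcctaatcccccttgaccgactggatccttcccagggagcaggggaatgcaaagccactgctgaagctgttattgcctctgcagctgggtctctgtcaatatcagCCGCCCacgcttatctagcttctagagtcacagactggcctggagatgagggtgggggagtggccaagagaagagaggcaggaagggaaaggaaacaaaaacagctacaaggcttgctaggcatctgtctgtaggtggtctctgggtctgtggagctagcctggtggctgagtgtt

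The printed starts of *Cacna1c* and *Cacnb4*, picked as the richest in G and C, were 81.3% and 78.3% G and C and held 6 GC boxes each. The other starts of *Cacna1c* were both 51.3% and those of *Cacnb4* 49.7% and 69.7%, with no GC box in any of these 4, so that the composition depended on the start. That of *Cacna1s* was 63.0% G and C with 1 GC box. *Scn1a* and *Scn7a*, with 1 start each, had 47.3% and 54.0%, with 0 and 1 GC boxes. Over the set, 14 of 36 windows (38.9%) held a GC box, against 35.7% of all 32851 windows in the table. The cyclic AMP response element TGACGTCA stood in 0 of the 36 and in 1.79% of all windows, and the TATA box letters TATAAA in 2 of the 36 (5.56%) and in 13.6% of all. Both were searched on either strand.

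Genes that work with these channels gave no call either. Of 15 tested genes that anchor or modulate sodium channels, such as *Ank3* and *Nfasc* of the axon initial segment, 0 rose and 0 fell, 5 were positive and 10 negative, and the median was -0.0029. The one with the largest change was *Fgf11*, a fibroblast growth factor homologous factor that binds sodium channels. It had 8.26, 8.25 and 8.29 in CGP, against 8.48, 8.39 and 8.45 in CON. The groups lay apart, and the change of -0.17 (standard error 0.040, adjusted p = 0.195) did not pass. Of 18 tested genes that bind or modulate calcium channels, 0 passed, and the largest change was 0.14, that of *Rem2*, a small GTPase that inhibits them (adjusted p = 0.535). The groups of *Rem2* overlapped. Only *Rims3* had an unadjusted p under 0.05 in limma, with a change of 0.13 (adjusted p = 0.289) and groups that lay apart. Of all tested probesets, 5.25% were higher at that level. Of these 18 changes 11 were positive and 7 negative, with a median of 0.012.

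The sodium leak channel gene *Nalcn* and its partners *Unc79*, *Unc80*, *Fam155a* and *Fam155b* had changes from -0.016 to 0.040, the largest being that of *Unc80*, and none passed. None of 10 AMPA receptor subunits and partners of the TARPs passed, 5 were positive and 5 negative (median 0.0069), and the largest change was -0.096 for *Cnih3* (adjusted p = 0.574). Among 23 tested genes of calcium release, store entry and extrusion 0 passed, with 14 positive and 9 negative changes and a median of 0.025. *Ryr2*, the ryanodine receptor of heart and brain that releases calcium from stores, had the largest. Its signals were 8.80, 8.83 and 8.78 in CGP, against 9.01, 8.93 and 8.98 in CON. Every CGP array was below every CON array, and the change was -0.17 (standard error 0.037, adjusted p = 0.186). *Ryr3* had the opposite sign, 0.10 (adjusted p = 0.409). Of 5 tested sperm and lysosomal channel genes 0 passed, and 4 were positive with a list median of 0.080. *Catsper4*, a pore gene of the sperm calcium channel, had the largest change and the only negative one, -0.18 (adjusted p = 0.343). Pan-neuronal genes had a median of 0.00055, with 4 of 8 positive. At an unadjusted p under 0.05 in limma 2 of them were lower, *Nefl* (-0.094) and *Nefm* (-0.13), and 0 higher. Of all tested probesets, 5.83% were lower and 5.25% higher at that level.

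**Figure D5:**
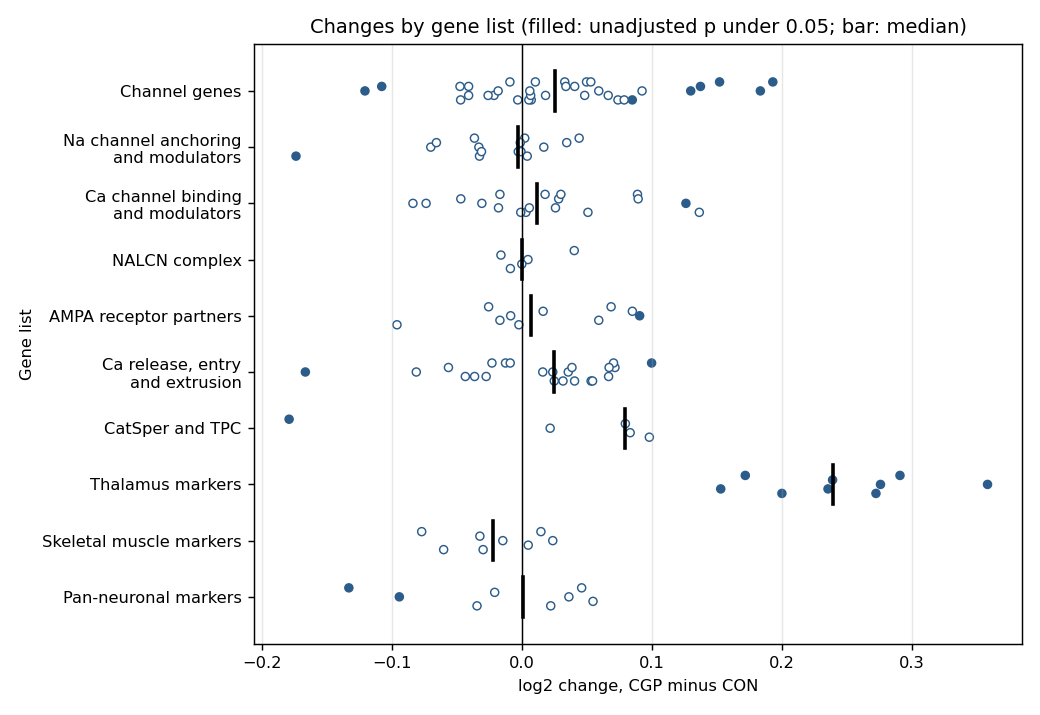
Changes of single genes (log2 of CGP minus CON on the horizontal axis) in the 34 channel genes, in 6 lists of genes that work with them or share their fold, and in 3 marker lists, with filled circles at an unadjusted p under 0.05 and a bar at the median. The medians of the channel and partner lists lie between -0.0029 and 0.080, while all 9 thalamus markers are positive with a median of 0.24.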

How the data were processed

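The authors deposited 1 table of log2 signals for 6 Affymetrix Mouse Gene 1.0 ST arrays, summarised by RMA in Partek software per the labels. RMA subtracts background and forces the arrays to 1 distribution. Changes at low signal may come out too small in such values. These signals entered the tests without further scaling. Of 28471 probesets, 18690 had 1 gene in the platform annotation, and 451 of these with a mean below 6 over the arrays were left out, which left 18239. This follows the article's methods for arrays of males. CGP was compared with CON by lmFit and eBayes in limma 3.58.1 (R 4.3.3), with Benjamini-Hochberg adjustment over all 18239 probesets. Intervals are 95%.

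All 34 genes matched RefSeq (GRCm38.p6) by Entrez identifier. Members and lists were chosen with earlier results of these data known. Signals on every array are given for genes past the test or an unadjusted p of 0.05, genes whose groups lay apart and the largest change of each subfamily, and other genes given by array were chosen after their values were seen. Of the other lists, genes past the test or the largest change are named. The fit was tested on simulated data. The alternatives covered filters, variance models, scaling, probesets, a replicate block and each array left out. The number of arrays limits the precision.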

Additional observations from a re-analysis of the deposited data

How the results depend on the processing

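In 14 of the 15 alternatives 0 channel genes rose, and in all 15 0 fell. With a trended and robust eBayes, which called 249 probesets in all against 51, 2 channel genes rose, *Cacna1g* (adjusted p = 0.013) and *Cacnb4* (adjusted p = 0.0348). The count at an unadjusted p under 0.05 was 8, where 11.1% of all tested probesets were at that level. With 1 array left out the count was 4 to 8, and the share of all tested probesets 8.05% to 14.2%. The count was 4 without CGP replicate 2 or CON replicate 1 and 5 without CON replicate 2. *Cacna1c*, *Cacna1g*, *Cacnb4* and *Cacng1* were among the channel genes at that level in every alternative. *Cacna2d3* turned to -0.0072 without CON replicate 3, against 0.0576 without CON replicate 2, the ends of its range with 1 array left out. Of 180 values of the 12 genes given in full, 177 kept their direction and their side of the threshold. The median change lay between 0.017 and 0.038. Genes whose groups lay apart numbered 10, where those of 17.5% of all tested probesets did. With arrays centred on their median such channel genes numbered 14, and the share of all probesets was not at hand for that setting. Arrays with the same replicate number did not deviate together (r = 0.078, -0.18 and 0.11 across probesets, which are not independent). With the replicate number as a block 6 channel genes had an unadjusted p under 0.05, as did 10.2% of all tested probesets, and 0 channel genes passed. No detection p was at hand, and small differences of the dimmest genes may be lost in the background.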
